A study of Homo sapiens with 3 samples.

Results

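The 5′ portion of domain II of human 28S ribosomal RNA was examined, defined as the adenosines and cytidines numbered 1312 to 1850 in the table of mutation signals. It holds 272 of the 2492 A and C positions of 28S rRNA, 114 of them A and 158 C, within 539 nucleotides. Signals were measured by dimethyl sulfate mutational profiling in HEK293 cells, a line from human embryonic kidney; the growth protocol names the derivative HEK293T/17. The 3 libraries came from cells given DMSO alone (the solvent), 10 µM cycloheximide or 10 µM RiboBright for 30 min. Cycloheximide blocks translation elongation from the exit site of the large ribosomal subunit, and RiboBright is called a probe in the labels. Each treatment had 1 library, so no test was possible, no p-value is given, and every difference below is a difference between libraries.

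The 28S rRNA is the main RNA of the large ribosomal subunit, and its domains are helices joined by loops and junctions that ribosomal proteins cover in part. An A or C whose Watson-Crick face is neither paired nor covered is methylated by dimethyl sulfate, and reverse transcriptase then misreads it. A high signal therefore marks an accessible A or C, unless the base carries a natural modification that is itself misread. Per the RefSeq annotation of GRCh38.p14, 28S genes lie in repeated arrays, with listed copies on chromosomes 21 and 22, and RNA28SN5 has the 5070 nt of the deposited table. The stretch is exonic and non-coding, and lies in the mature rRNA. Numbering follows the deposited table, from the 5′ end of the rRNA, and T stands for U.

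The sequences that the results turn on are given first, 5′ to 3′ as the deposited table lists them. Capitals mark each A or C with a DMSO signal of at least 0.240, the 75th percentile of all listed DMSO values, which is called open here. The first is the start of the stretch with its methylated adenosine, then come 4 hairpin loops, the stretch around the highest cytidine, and the longest open and closed stretches.
Start of the stretch: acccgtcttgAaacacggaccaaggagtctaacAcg
Hairpin with C1367 and A1372: ggctCgCACgaAagcc
Hairpin with C1407: ggccggcgCgCtcgccggcc
Hairpin with C1481 and C1483: cccgcCgCgCcggg
Hairpin with A1565: gccagaggaaActctggt
Around C1594: tagcggtcctgaCgtgcAAatcggt
Longest open stretch, C1696 to C1720: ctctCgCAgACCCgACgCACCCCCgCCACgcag
Longest closed stretch, A1503 to A1525: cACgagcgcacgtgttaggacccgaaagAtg

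In DMSO, 63 of the 272 positions were open (23.2%), against 25.3% of the listed positions in the rest of 28S. Cytidines were open in 36 of 158 cases (22.8%, against 23.3% elsewhere) and adenosines in 27 of 114 (23.7%, against 29.1%). The median DMSO signal was 0.121 on A and 0.065 on C, and 0.137 and 0.079 in the rest of 28S. The stretch thus lay close to the rest of the molecule in cytidines and somewhat below it in adenosines. Its G and C content was 62.3%, against 69.4% for the whole 28S, and A made up 21.2% of it against 15.7%. Levels in the treated libraries were similar, with a median of 0.132 on A and 0.0735 on C in cycloheximide, and 0.134 and 0.075 in RiboBright.

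Coverage of the stretch was complete. All 272 positions had a value in each of the 3 libraries (100%), against 1566 of the 2220 elsewhere in 28S (70.5%). The A and C positions just before it, in expansion segment 7, a long GC-rich insertion of vertebrate 28S rRNA, had values in all 3 libraries in 88 of 435 cases (20.2%). The domain II positions after it had them in 233 of 269 (86.6%). No A or C of the stretch lay within 25 nt of a missing value. An exact 0 was listed at 0 positions in DMSO, 0 in cycloheximide and 5 in RiboBright, namely A1323, C1344, C1402, C1417 and C1418. These 5 had DMSO signals of 0.008 to 0.033, so they were already among the low positions. Over the whole 28S, 0 was listed for 89 of 2220 values in DMSO, 77 of 2264 in cycloheximide and 114 of 1838 in RiboBright.

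**Figure D1:**
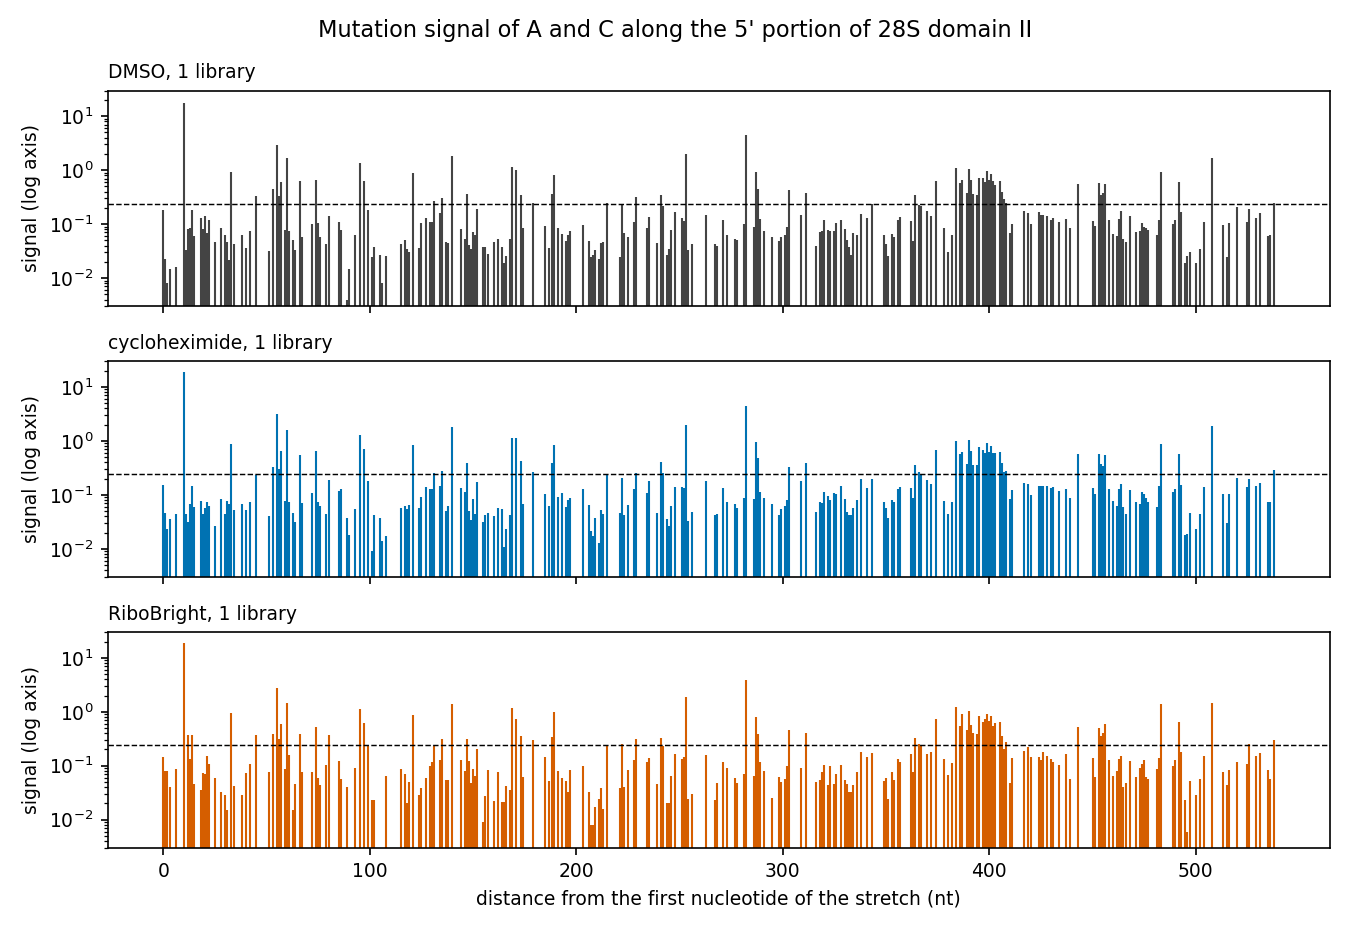
Mutation signal (y axis, log scale, no unit) at the 272 A and C positions, by distance in nt from the first nucleotide of the stretch (x axis), with 1 library per panel and a dashed line at the floor of 0.240. The same peaks stand above the line in all 3 panels, led by A1322 near the left edge, and 20 neighbouring positions form the broad open block right of the middle; the 5 values of 0 in RiboBright have no bar.

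The highest signal of the entire 28S lay in this stretch. A1322, known to carry N1-methyladenosine placed by nucleomethylin (RRP8), read 17.791 in DMSO, 18.729 in cycloheximide and 18.991 in RiboBright. It ranked 1 over the whole molecule in each of them. The methyl group sits on the Watson-Crick face and is misread by reverse transcriptase without any dimethyl sulfate, and no library without dimethyl sulfate was analysed here. After scaling, its log2 ratio was -0.01 for cycloheximide and -0.04 for RiboBright against DMSO. The level was therefore nearly equal in the 3 libraries.

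The other natural modifications on A or C in the stretch are 2′-O-methylations, placed by fibrillarin with guide snoRNAs on the ribose, which leaves the base's pairing face free. Of 18 modified sites taken from general knowledge of 28S rRNA, all 18 had the expected base in the table and 6 fell on A or C. A1323, next to the N1-methylated base, was low, with 0.033 for DMSO, 0.044 for cycloheximide and 0 for RiboBright. C1340 read 0.084, 0.084 and 0.032 in the same order. A1524, inside the longest closed stretch, read 0.045, 0.052 and 0.039. A1534 was the highest of the 2′-O-methylated sites in DMSO, where it was just under the floor. Its unscaled signals of 0.224 in DMSO, 0.203 under cycloheximide and 0.249 under RiboBright lay on both sides of it. With the scaling given below, the RiboBright value was 0.227, also under the floor. A1326 read 0.18 in DMSO, 0.145 in cycloheximide and 0.376 in RiboBright, where it passed the floor. None of the 5 was open in DMSO, where 23.2% of the 272 positions were. So few sites do not set the 2′-O-methylated positions apart.

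Several of the next highest DMSO signals came from nucleotides in short predicted loops. A minimum free energy fold of the 539 nt alone placed 117 of the positions unpaired and 155 paired. C1367 and A1372 shared a predicted loop of 8 nt closed by 4 base pairs, and 5 of its 6 A and C positions were open while 0 of the 4 in the stem were. Hairpins here and in the next 2 paragraphs were chosen for high signals in their loops, which partly fixes such contrasts in advance. Other predicted loops ranged from 0 of 6 open (hairpin 1628 to 1641) to 6 of 6 (1708 to 1717, where both stem positions were open too). In the hairpin 1384 to 1396, 0 of 4 loop positions and 1 of 2 stem positions were open. C1367 read 2.95, 3.179 and 2.712 in DMSO, cycloheximide and RiboBright, and A1372 read 1.67, 1.618 and 1.468. The adenosine just before it, A1371, read 0.078, 0.077 and 0.086, so adjacent loop adenosines differed widely in each library.

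The 7-bp hairpin closed by a GAAA loop showed the same kind of contrast. Such tetraloops, of the GNRA type, stack their last purines in a compact turn. A1565, its last adenosine, read 2.022 in DMSO, 1.95 in cycloheximide and 1.852 in RiboBright. The preceding loop adenosines were low, with A1563 at 0.128, 0.142 and 0.133 and A1564 at 0.115, 0.134 and 0.147. The 6 A and C positions of its stem had a median DMSO signal of 0.0385 and 0 of them were open. Looked at after these values were seen, the letters GAAA (this strand only) occurred 6 times in the stretch and 19 times elsewhere in 28S. Within the stretch the third A was the highest of the 3 in 3 cases, the first in 2 and the second in 1. No fixed position led. The cases led by the first A include A1322, whose natural methyl group is itself misread. Of the 6, only the motif with A1565 was predicted as a hairpin loop of 4 nt, so the count does not bear on such loops.

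The GC-rich hairpin with C1407 had 8 predicted base pairs and a CGCT loop in the fold of the stretch alone. The fold of the whole 28S instead paired both loop cytidines, C1407 and C1409. C1407 read 1.348, 1.28 and 1.116, and C1409, the other loop cytidine, read 0.62, 0.703 and 0.607. The 8 stem cytidines had a median of 0.026 in DMSO, and 0 of them were open. In the hairpin with C1481 and C1483, also from the fold of the stretch alone, 3 of 4 loop cytidines were open and 0 of 4 in the stem. The fold of the whole 28S paired these loop cytidines (C1480, C1481, C1483 and C1485). C1481 read 1.127 in DMSO, 1.114 in cycloheximide and 1.19 in RiboBright. C1483 read 0.992, 1.139 and 0.735, which was lowest in RiboBright. C1820, in a predicted loop of 6 nt closed by only 1 base pair, read 1.702, 1.861 and 1.479.

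Of the other high positions, A1452 read 1.819 in DMSO, 1.782 in cycloheximide and 1.399 in RiboBright. A1795 read 0.935, 0.892 and 1.396, and A1599 read 0.917, 0.938 and 0.789. A1345, ranked 16 in DMSO, read 0.911, 0.885 and 0.946. The order at the top was largely shared: 12 of the 15 highest positions in DMSO were also among the 15 highest in both treated libraries. The remaining ranks were exchanged among A1345, A1599, A1699, C1483, C1501 and C1711.

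**Figure D2:**
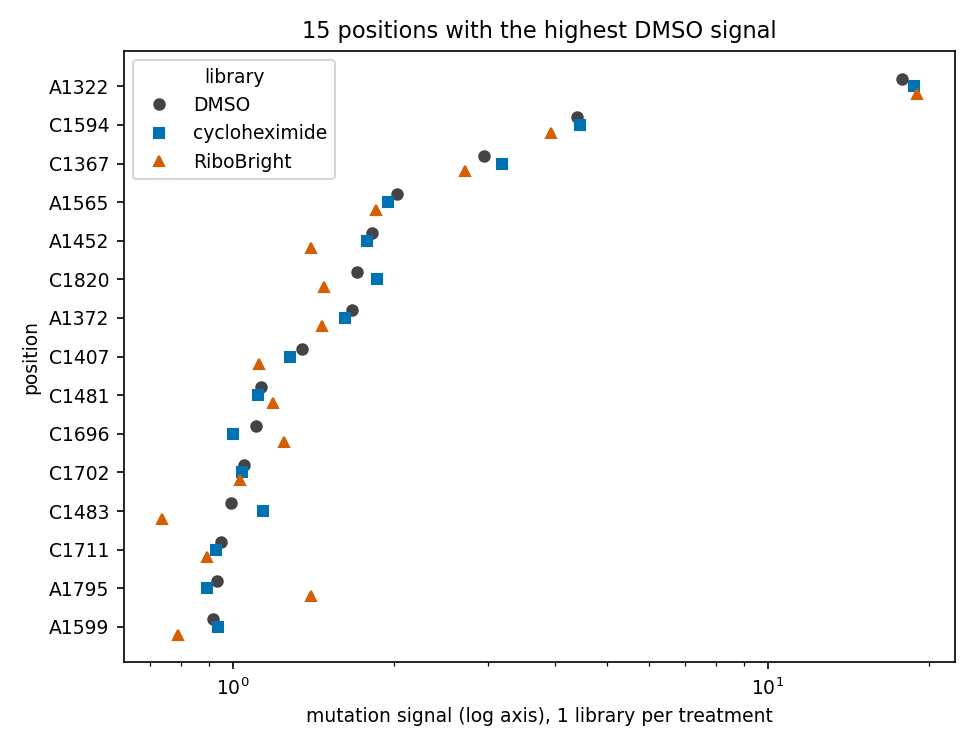
Mutation signal (x axis, log scale, no unit) of the 15 positions with the highest DMSO signal (y axis), with circles for DMSO, squares for cycloheximide and triangles for RiboBright, 1 library each and no error bar. A1322 stands apart at 17.8 to 19.0, and RiboBright is the lowest of the 3 at C1594, C1367 and A1452 and the highest at A1795.

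C1594 was the highest cytidine and the second peak of the stretch. It read 4.394 in DMSO, 4.455 under cycloheximide and 3.928 under RiboBright. The fold paired it with G1604, at the base of a 2-bp stem, in all 3 folds tried. It headed 21 positions that were open in DMSO although predicted as paired in the fold of the stretch alone, in the fold with 100 nt on each side and in the fold of the whole 28S. The next were C1696 (1.106, 0.998 and 1.247), C1702 (1.046, 1.039 and 1.028) and C1501 (0.822, 0.847 and 0.993). All 4 kept signals far above the floor in every library. Predicted folds contain no protein, tertiary contact or modification, so these are positions where the prediction and the signal differ.

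The longest run of open A and C positions of the entire 28S, taken without a break by a lower or missing DMSO value, was the block from C1696 to C1720. It covered 25 nt with 20 A and C positions, and the next longest in 28S, C2107 to C2147, had 13. Its DMSO signals ran from 0.242 at C1720 to 1.106 at C1696, with a median of 0.633. The medians in cycloheximide (0.607) and RiboBright (0.629) were close to it. C1711 to C1715, its run of 5 cytidines, read 0.951, 0.659, 0.841, 0.627 and 0.542 in DMSO. The same nucleotides read 0.928, 0.616, 0.811, 0.588 and 0.6 in cycloheximide, and 0.894, 0.679, 0.835, 0.535 and 0.61 in RiboBright. In DMSO, cycloheximide and RiboBright, A1699 read 0.654, 0.618 and 0.923 and A1719 read 0.293, 0.264 and 0.208. RiboBright was thus the highest at the former and the lowest at the latter. The fold of the stretch left 12 of the 20 unpaired.

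The next longest open runs of the stretch held 4 positions each. C1365 to C1369 is the 5′ side of the loop with C1367, and A1765 to C1768 has the sequence AAAC, read as 0.569, 0.34, 0.377 and 0.563 in DMSO. In RiboBright the latter read 0.509, 0.349, 0.406 and 0.59. Medians of this second run were 0.47, 0.466 and 0.458 in DMSO, cycloheximide and RiboBright.

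Closed stretches, with each DMSO value below the median of all listed values (0.099), were longest upstream of C1557. The first of them, A1503 to A1525, held 13 positions with a median DMSO signal of 0.049, and of 0.059 and 0.032 under cycloheximide and RiboBright. It follows directly on A1500 (0.367 in DMSO) and C1501 (0.822), so signals dropped within 2 nt. C1413 to C1431 held 9 positions with medians of 0.031, 0.043 and 0.023, and includes most of the 3′ strand of the hairpin with C1407, whose first cytidine, C1411, read 0.186 in DMSO and lay outside it. C1467 to C1480 held 9, all C, with medians of 0.038, 0.042 and 0.028. In these 3 stretches the highest value in any library was 0.129.

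Cut into 11 windows of 49 nt, the stretch had its highest median DMSO signal (0.208) from 1704 to 1752, where 14 of 28 positions were open. The lowest (0.052) lay from 1410 to 1458. Positions up to C1556 (windows 1 to 5) had a median of 0.068 and 80 of 126 were closed, while those from C1557 on had a median of 0.117 and 59 of 146 were closed. This division was drawn after the windows had been seen. All 5 zeros of RiboBright fell in the former.

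Signal went with predicted pairing among cytidines in the fold of the stretch. The medians of unpaired and paired adenosines were close, though a larger share of the unpaired was open. Unpaired C had a median DMSO signal of 0.139 against 0.053 for paired C, with 42.2% and 15.0% open. The share of pairs in which the unpaired C exceeded the paired C in DMSO, the rank separation, was 0.753, where 0.5 is no separation. For A the medians were 0.119 unpaired and 0.130 paired, with 26.4% and 19.0% open, and the separation was 0.527. Over both bases it was 0.693 in DMSO, 0.682 in cycloheximide and 0.686 in RiboBright. Of the members, 247 (90.8%) kept their paired or unpaired state with 100 nt added on each side, and 221 in the fold of the whole 28S. In that last fold the C medians came to 0.110 and 0.059. The open shares of C were nearly equal, at 25.0% of unpaired C (9 of 36) and 22.1% of paired C (27 of 122). Those of A lay further apart there, at 28.4% unpaired (21 of 74) and 15.0% paired (6 of 40).

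**Figure D3:**
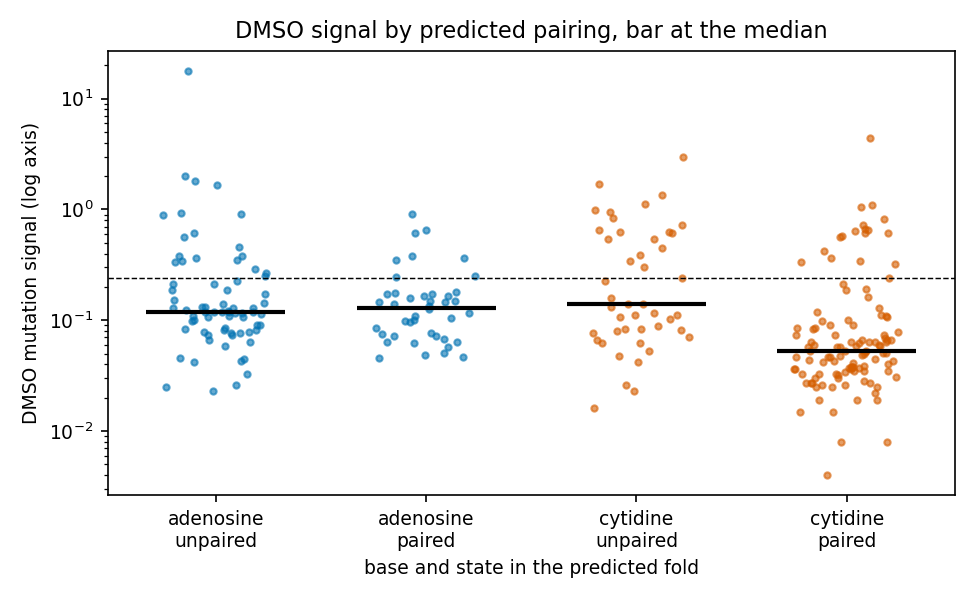
DMSO signal (y axis, log scale, no unit) of each A and C of the stretch, split by base and by state in the predicted fold of the 539 nt (x axis); points are positions spread sideways for visibility, bars are medians and the dashed line is the floor of 0.240. The C medians lie apart (0.139 unpaired, 0.053 paired) and the A medians lie side by side (0.119 and 0.130).

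Neighbouring bases went with different levels among adenosines. An A preceded by C had a median DMSO signal of 0.18 and 9 of 21 were open (42.9%); one preceded by A had 0.119 with 6 of 35 open (17.1%). An A preceded by T was open in 2 of 17 cases. In the rest of 28S these shares were closer together, at 31.9% after C, 29.2% after A and 21.1% after T. Among cytidines, those after T were open in 4 of 32 cases and those after A in 8 of 25 (12.5% and 32.0%), against 25.9% and 26.4% in the rest of 28S. These are counts over few positions that share loops, and they are given as a description.

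The treated libraries were then set against DMSO. Each library was first scaled by the median of its values above 0 over all 28S, which multiplied cycloheximide by 0.945 and RiboBright by 0.912. These shifts are -0.08 and -0.13 on the log2 scale. A position was called where the higher scaled signal reached the floor and the ratio, with 0.0104 added to both values, was at least 2-fold. All log2 ratios are on this scale, which understates changes of low positions.

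Cycloheximide differed little from DMSO here. Of the 65 positions at or above the floor in either library, 0 were called, against 4.59% of the 588 such positions in the whole 28S. All 65 lay within 1.5-fold, with log2 ratios from -0.58 to 0.26 and an SD over positions of 0.15. In the rest of 28S, positions over 25 nt from a missing value were called in 2 of 325 cases (0.615%). The lower end was C1357, whose DMSO, cycloheximide and RiboBright signals were 0.338, 0.236 and 0.374. The upper end was C1485, in the loop with C1481, at 0.341, 0.434 and 0.358. The largest differences in scaled signal were at high positions: C1594 was 0.182 lower and A1565 0.178 lower, which left 95.9% and 91.2% of the DMSO value. Without scaling C1594 was slightly higher in cycloheximide (4.455 against 4.394), so its direction turns with that choice. The median log2 ratio of the 272 was 0.00, and -0.01 over all 28S.

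RiboBright gave 2 calls against DMSO, both higher, among 66 positions at or above the floor. In the whole 28S, 5.22% of 498 such positions were called and 2.61% were called higher, so the count is near the background. Within 1.5-fold were 61 of the 66, and the SD of the log2 ratios was 0.39. The median over the 272 positions was -0.09, and -0.08 over all 28S. Positions over 25 nt from a missing value in the rest of 28S were called in 12 of 358 cases (3.35%).

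A1324 had the higher of these ratios. It lies in the predicted loop of 8 nt with A1322, and it read 0.082 in DMSO, 0.032 in cycloheximide and 0.374 in RiboBright. The RiboBright value was above both others, and the log2 ratio against DMSO was 1.93. A1392, in a predicted loop of 7 nt, read 0.144, 0.187 and 0.369, also highest in RiboBright, with a log2 ratio of 1.17. Its neighbour A1391 read 0.043, 0.044 and 0.101, below the floor in each library. Neither hairpin was the same in all 3 folds. The nearest missing value was 76 nt from A1324 and 144 nt from A1392. Just short of the call was A1326, with a log2 ratio of 0.89; among lower positions C1378 came nearest at -0.80, with 0.618 in DMSO, 0.541 in cycloheximide and 0.385 in RiboBright.

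Against cycloheximide, RiboBright again had 2 positions called, A1324 (log2 ratio 3.11) and A1326 (1.26), both higher. This compares with 5.76% of 486 positions called in the whole 28S, and 3.91% called higher. A1392 fell short at 0.89, and on the lower side C1483 reached -0.68. Comparisons that share a library are not independent: A1324 was lowest in cycloheximide, which raises the ratio of 3.11. Of the 66 positions, 60 were within 1.5-fold, and the median over the 272 was -0.10, against -0.08 over all 28S.

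**Figure D4:**
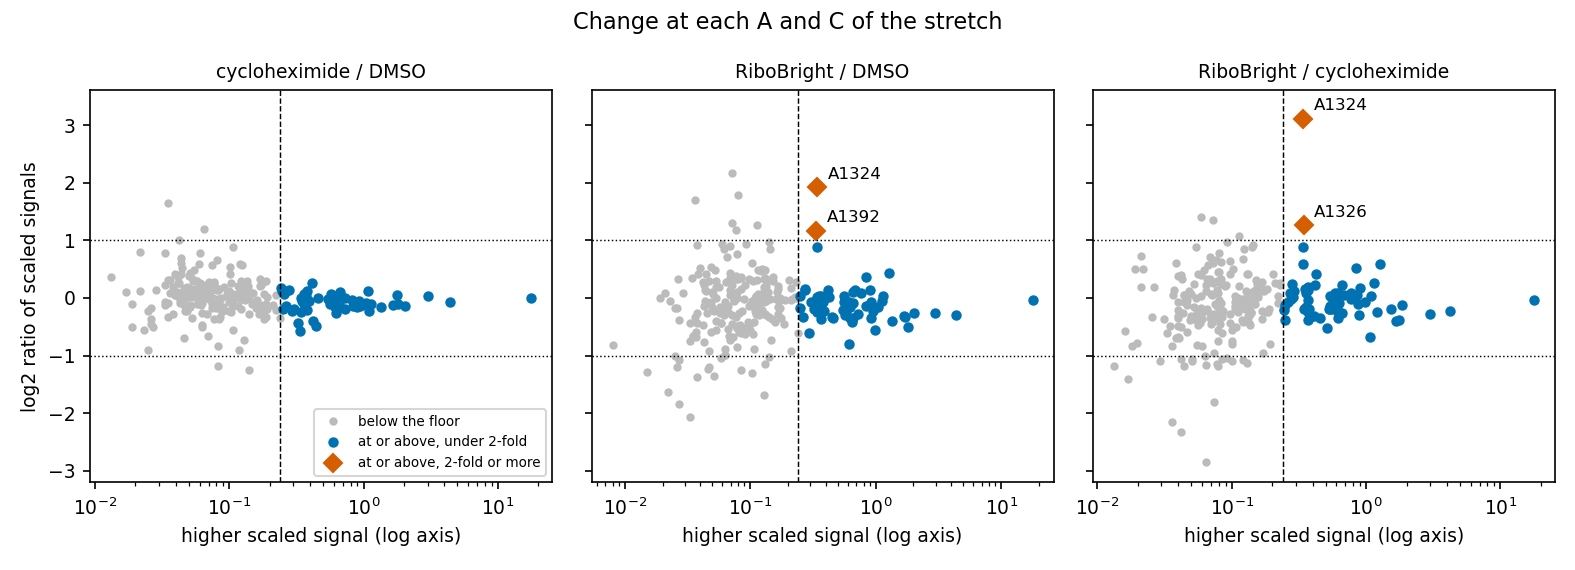
Log2 ratio of scaled signals (y axis) against the higher of the pair of scaled signals (x axis, log scale) for each of the 272 positions, with 1 comparison per panel and 1 library per treatment; dashed lines mark the floor of 0.240 and dotted lines 2-fold. Grey points below the floor scatter widely, and past the floor A1324, A1392 and A1326 are the positions at 2-fold or more.

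Around A1324 and A1326 the RiboBright values lay on both sides of DMSO, as seen when the neighbouring nucleotides were looked up. On the 5′ side, C1313, C1314, C1315 and C1318 read 0.023, 0.008, 0.015 and 0.016 in DMSO and 0.079, 0.079, 0.041 and 0.088 in RiboBright. All 4 remained far below the floor, and cycloheximide was between the others at each of them (0.046, 0.023, 0.035 and 0.045). A1323 went the other way in RiboBright, to a listed 0. C1325, between A1324 and A1326, read 0.084 in DMSO and 0.135 in RiboBright. On the 3′ side, the log2 ratios of RiboBright to DMSO were -0.43 at C1327, -1.69 at A1330, -0.26 at C1331 and -1.02 at C1332. They were 0.96 at A1333 and -0.27 at A1334. Just outside the stretch, C1310 had a ratio of 0.31, C1309 of 0.83, C1308 of 0.70 and A1307 of -1.20. Further to the 5′ side, C1306 had 2.16, C1305 1.07, C1304 -2.06 and A1303 -0.65. Low positions here thus differed in both directions, though not evenly. Among the 9 A and C from A1312 to A1326 other than A1322, 7 had a log2 ratio above 0, with a median of 0.91. These 9 include A1324 and A1326. In the 262 members after them, 98 were above 0, with a median of -0.12.

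**Figure D5:**
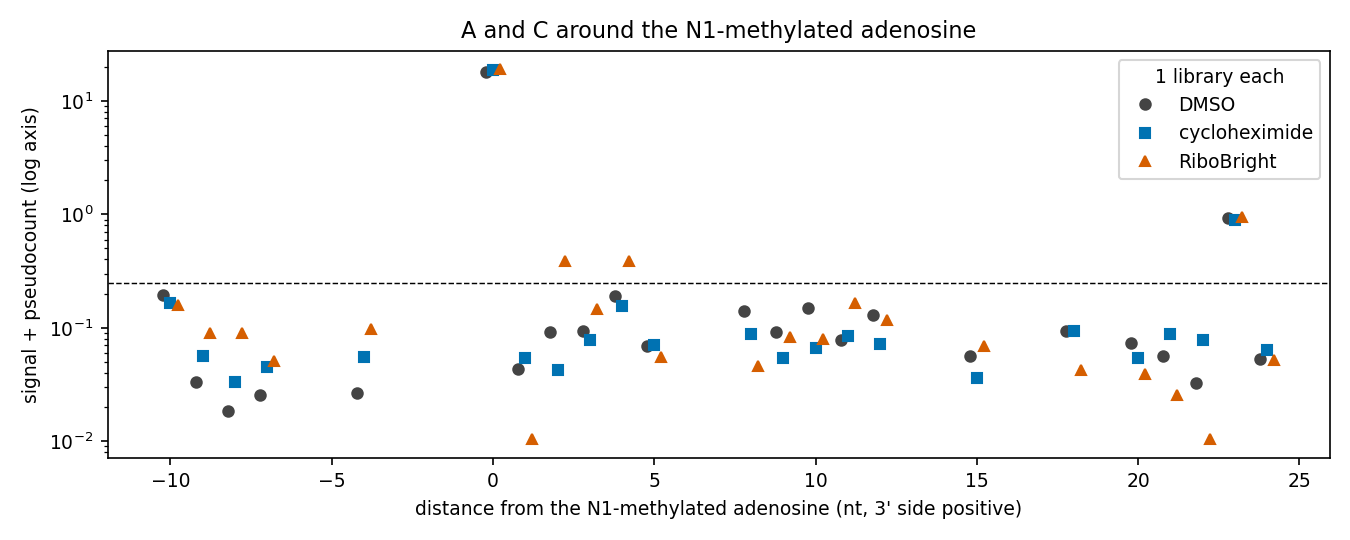
Signal plus the pseudocount of 0.0104 (y axis, log scale, no unit) by distance in nt from the N1-methylated adenosine (x axis, 3′ side positive), with circles for DMSO, squares for cycloheximide and triangles for RiboBright, 1 library each. The methylated base reads alike in all 3, the RiboBright triangles lie above the floor (dashed) at 2 and 4 nt on the 3′ side (A1324 and A1326), and they lie at the bottom at 1 nt (A1323).

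Below the floor the libraries scattered more, and RiboBright most. In RiboBright against DMSO, 6 of 206 such positions were at least 2-fold higher and 17 at least 2-fold lower; in cycloheximide against DMSO these were 3 and 2 of 207. The shares were 2.91% higher and 8.25% lower for RiboBright, against 5.15% and 14.2% over all 28S. For cycloheximide they were 1.45% and 0.966%, against 5.65% and 4.84%. The values over all 28S include positions beside missing values, which the stretch lacks. In the rest of 28S over 25 nt from a missing value, cycloheximide had 19 higher and 21 lower of 1045. RiboBright had 51 higher and 133 lower of 1012 there. Within the stretch, of all 2-fold differences between RiboBright and DMSO, with or without the floor, positions up to C1556 held 8 of 8 higher and 15 of 17 lower. The SD of the log2 ratio was 0.75 there and 0.34 from C1557 on. For cycloheximide the values were 0.43 and 0.18. In this division, drawn after the windows had been seen, the piece with the lower level had the larger scatter. By window, lower levels tended to go with larger scatter, though not in strict order. The lowest median DMSO signal, 0.052 from 1410 to 1458, had a RiboBright SD of 0.65. The highest, 0.208 from 1704 to 1752, had an SD of 0.27. Windows out of this order were 1361 to 1409, with 0.099 and an SD of 0.74, and 1606 to 1654, with 0.074 and 0.36. The part of level and scatter in the calls at A1324 and A1392 was not tested.

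High positions tended to be lower in both treated libraries, in part with the scaling. They were picked by their DMSO signal, which is also the denominator of the ratio. Of the 11 positions with a DMSO signal of 1 or more, 10 had a scaled RiboBright ratio below 0 in log2 terms, with a median of -0.26. Without scaling 8 of the 11 were below. In the rest of 28S, 60 of 81 such positions were below with scaling (median -0.13) and 40 without. For cycloheximide, 9 of the 11 were below with scaling (median -0.10) and 7 without. In the rest these were 77 of 107 (median -0.10) and 56. For RiboBright the largest falls in scaled signal were at C1594 (-0.81, 81.6% of DMSO left), A1452 (-0.54, 70.2%), C1367 (-0.48, 83.9%), A1322 (-0.47, 97.4%) and C1820 (-0.35, 79.3%). At A1322 the direction turns without scaling, from 17.791 in DMSO to 18.991 in RiboBright, while the other 4 were also lower unscaled. The largest rises were at A1795 (0.34, 136% of DMSO), A1324, A1392, A1699 and A1326, all adenosines. C1594 was thus first among the falls, and its log2 ratio of -0.29 stayed well within 2-fold.

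Across the stretch the 3 profiles ran close together. Over the 272 positions, Pearson's r between the log2 signals of DMSO and cycloheximide was 0.978, against 0.901 over 1928 positions of the rest. For RiboBright and DMSO it was 0.936, against 0.876 over 1566 positions. Without A1322 the values were 0.976 and 0.931. Neighbouring positions share reads and structure, and the rest includes many positions beside missing values, so these are descriptions. By window, the median log2 ratio ran from -0.08 to 0.11 for cycloheximide and from -0.26 to 0.01 for RiboBright, with 10 of 11 window medians of RiboBright below 0. Without scaling 5 of the 11 were below 0 and 6 above.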

How the data were processed

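The authors deposited a signal per nucleotide of 28S rRNA for A and C, with 3 decimals; the whole table and the 3 single-library files hold identical values. The submitters' processing notes name Bowtie2, cutadapt and hg38. How mutations were counted, filtered on coverage, corrected for background and normalized is not given in the sources used here. In DMSO, values ranked 2 to 10% down from the highest averaged 0.987 (A) and 0.994 (C). They averaged 0.988 (A) and 1.00 (C) in cycloheximide, and 1.00 (A) and 0.993 (C) in RiboBright. Averages this near 1 are what a scaling within library and base would give, so such a scaling is inferred from the values only. Under it, a change shared by all positions would not be visible. Depth is unknown, no counting interval is given, and 1 library per treatment gives no spread between samples.

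Scaling, the floor, the pseudocount (10% of the DMSO median of values above 0) and the 2-fold rule are given in the report. They were applied to all A and C positions of 28S with Python 3.11.15 and pandas 2.3.3. The rule was checked on simulated data with changes planted well above the floor, so the check does not cover calls near it. An exact 0 was kept as a value. Folds came from RNAfold 2.7.2 at its defaults. The positions, lists and rules were chosen with earlier results of these data known. Text names the natural modification sites on A or C, the 15 highest DMSO signals, each called position, the 5 largest rises and falls, the 3 longest open and closed stretches, and predicted hairpins and neighbours of these; other positions were named after their values were seen.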

Additional observations from a re-analysis of the deposited data

How the results depend on the processing

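No paired analysis was possible because each treatment has 1 library, and the shared number 1 names a single sample per group. In the order cycloheximide against DMSO, RiboBright against DMSO and RiboBright against cycloheximide, the 0, 2 and 2 positions called became 1, 7 and 6 with the floor at the DMSO median, 5, 25 and 25 with no floor, and 0, 5 and 6 at 1.5-fold. With the floor at the 90th percentile, 0 were called in all 3. At 3-fold, 0, 1 and 1 were called. A pseudocount of 50% left 1 call for RiboBright against DMSO, with A1392 at 0.99, and did not move the other counts. Without 25 nt at each end, which removes A1324 and A1326, the counts were 0, 1 and 0; with 25 nt added they were 0, 3 and 5. Without scaling, the median log2 ratio of RiboBright against DMSO was 0.031 and A1326 was called at 1.02. A1324 ranged from 1.55 to 2.06 against DMSO and from 2.26 to 3.45 against cycloheximide. The share of open positions was 48.9% with the floor at the DMSO median and 7.72% at the 90th percentile, and the rank separation was 0.642 in the fold of the whole 28S. The cause of these shifts was not tested beyond the choice itself. Without a count of reads, how far depth limits the low positions is unknown.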
